A study of Mus musculus with 4 samples.

Results

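Leptotene and zygotene spermatocytes are the germ cells of early meiotic prophase. They were taken here from the droplet-based single-cell libraries as barcodes with 1000 to 4500 detected genes that held at least 2 unique molecular identifiers (UMIs, counts of captured RNA molecules) of the germ cell genes Ddx4 and Dazl together. In addition, at least 3 of 6 early prophase genes (Dmc1, Terb1, Zcwpw1, Inca1, Rad51ap2 and Spdya) and at most 1 of 6 pachytene genes (Gml, Gml2, Rsph1, Zfp820, 1700102P08Rik and Tesmin) had to be detected. The cells were thus chosen by measured values of these genes, and the levels of these genes are given as a description only. The rule selected 1913 cells of the 22567 barcodes within the limits on detected genes and of 46001 barcodes in all.

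Each library held the pooled cells of 3 C57BL/6 pups at P14, dissociated from the part of the testis around the rete testis (RT) and loaded for 5000 cells. The 2 Sox17-cKO libraries carry the genotype SF1Cre:Sox17flox/flox, in which a Cre driven by Nr5a1 (SF1) sequences acts in the somatic lineages of the gonad and not in germ cells. The records give SF1Cre as the genotype of the 2 control libraries, whereas the methods describe Sox17flox/flox littermates, so whether the controls carried the Cre is unclear. The count tables of control 1 and Sox17-cKO 1 were made with Cell Ranger 6.0.2, and those of control 2 and Sox17-cKO 2 with 6.1.2. What differs between these pairs of libraries (software, preparation or pups) cannot be told apart.

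In leptotene, chromosomes condense along a protein axis of cohesins and HORMA-domain proteins, and SPO11 makes programmed breaks at sites marked by PRDM9. In zygotene, the recombinase DMC1 acts in the search for the homologue, telomeres gather at the nuclear envelope, and the synaptonemal complex begins to join the paired axes. STRA8 and MEIOSIN switch this programme on at the preleptotene stage, when the cells lose the support of KIT-dependent spermatogonial growth. At P14 the first wave of spermatogenesis has brought germ cells through these stages into pachytene, and no spermatids are present.

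Values of single libraries are given below for control 1 and 2 first and for mutant 1 and 2 after them. The selected cells numbered 562 and 418 in the controls and 542 and 391 in the mutants. Their summed UMIs were 4717664, 4055363, 4424330 and 3423025 in the same order, so that 1 UMI was worth 0.212 to 0.292 CPM (counts scaled to a library total of 1000000 UMIs). The median cell held between 7466 and 9389 UMIs. Between 20 and 43 barcodes were shared by each pair of libraries among all barcodes, and 0 among the selected cells. The targeted gene, Sox17, was checked in RT cells (12 and 61 in the controls, 10 and 40 in the mutants), where it stood at 455 and 257 CPM in the controls and 40.7 and 23.7 in the mutants, the latter from 3 and 8 UMIs. The selected germ cells held 7 UMIs of Sox17 and 79 of Nr5a1 over the 4 libraries.

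The markers that the rule did not use were detected in the selected cells in every library. Smc1b, a meiotic cohesin subunit, stood at 1288 and 1612 CPM in the controls and 1743 and 1594 in the mutants. Sycp2, a component of the axial element, stood at 368, 308, 518 and 309 CPM in the same order. Sox17-cKO 1 was the highest library for both genes, and the genotypes overlapped in both. Neither gene was particular to the selected cells, since Smc1b averaged 1520 CPM and Sycp2 864 CPM in the pachytene cells described below. Cells with at least 3000 UMIs were thinned to 3000 UMIs, and cells with fewer were left out of the thinned shares. After thinning, Smc1b was detected in 88.5 to 94.0% of the selected cells and in 5.59 to 19.0% of a somatic class, which should lack it (97.9 to 99.5% and 10.4 to 36.5% without thinning, at median depths of 7466 to 9389 and 3216 to 5974 UMIs). Thinning kept 538, 415, 502 and 382 selected cells and 655, 662, 411 and 692 cells of the somatic class. The somatic class held 3552 cells with no Ddx4 or Dazl UMI and at least 3 of 6 Sertoli genes. Its Sertoli markers summed to 13691 to 19042 CPM over the libraries and its interstitial markers to 8600 to 19196 CPM, so it is not a pure Sertoli population. For Sycp2 the thinned shares were 45.8 to 65.5% and 2.57 to 10.2%. Spo11 was detected in few cells, with thinned shares of 3.37 to 5.98% in the selected cells and 0.151 to 0.289% in the somatic class.

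The label did not hold equally for all cells of the rule. Of the 1913 cells, 820 (42.9%) had exactly 3 of the 6 early prophase genes, 418 had 4, 307 had 5 and 368 had 6. Cells with exactly 3 resembled the 1724 cells with 2 that lay just outside the rule. Sycp3, the other axial element gene, averaged 403 ± 24.5 CPM (SD, n = 4 libraries) with 2 genes, 538 ± 37.5 with 3 and 2965 ± 141 with 6. Uchl1, a spermatogonial gene, averaged 715 ± 114, 652 ± 127 and 107 ± 26.4 CPM in the same order. Kit, the receptor of differentiating spermatogonia, averaged 120 ± 26.0, 134 ± 45.1 and 30.5 ± 11.8 CPM. The axial element was thus low and the spermatogonial genes high in the cells with 3 genes, which go against a leptotene or zygotene name, and all 1913 are called the selected cells below. The cells with 3 genes were also the deepest of the selected cells, with a median of 9610 UMIs against 7984 in those with 6.

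On the other limits of the rule, 938 cells held none of the 6 pachytene genes, 975 held 1, and 563 cells that met the rest of the rule held 2 and lay outside. A further 1657 cells met the rule on genes but had over 4500 detected genes, with a median of 22732 UMIs. In these, Sycp3 averaged 397 ± 39.8 CPM and Uchl1 960 ± 327 CPM. Doublets were not called, and their number among the selected cells is unknown.

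**Figure D1:**
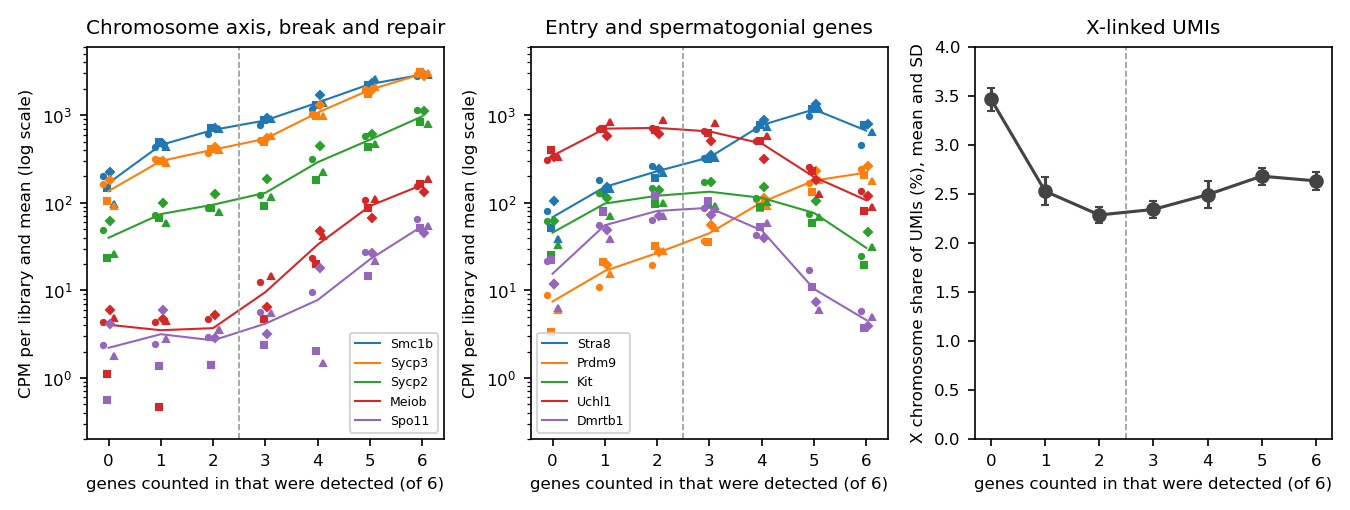
Levels of named genes and the X chromosome share of UMIs against the number of the 6 early prophase genes detected in a cell (horizontal axis). Points are libraries (circle control 1, square control 2, diamond Sox17-cKO 1, triangle Sox17-cKO 2) and lines the mean of 4 libraries in CPM on a log axis, bars on the right are the SD, and the dashed line is the limit of the rule. Sycp3 averaged 538 CPM in cells with 3 genes and 2965 CPM in cells with 6, and Uchl1 averaged 652 and 107 CPM.

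The cells were also grouped by the number of early prophase genes detected, after the data were seen. This number counts genes of the rule, so genes expressed together with them are likely to rise with it. It gives no order in time. A pachytene gene was detected in 39.0% of the cells with 3 genes and in 74.7% of those with 6. Of 58 genes with a role in meiosis that the rule did not use, 50 were higher in cells with 6 genes than in those with 3 in 4 of 4 libraries, and 3 were lower in all 4. The 3 were Rec114, a partner of the break machinery, Tex11, which acts in crossover formation, and Mlh3, a crossover nuclease subunit, named after their values were seen. Meiob, which protects single strands at repair sites, averaged 9.54 ± 4.77 CPM with 3 genes and 160 ± 22.4 CPM with 6. Spo11 averaged 4.16 ± 1.65 and 54.1 ± 8.10 CPM. Both were thus higher in the cells with 6 genes than in those with 3, as a description of groups formed by rule genes. Prdm9 averaged 44.9 ± 10.5 CPM with 3 genes and 221 ± 37.8 with 6. No share over all genes was set beside the counts of 50 and 3, so they describe the listed genes only.

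Stra8 took another course. It averaged 330 ± 15.4 CPM in cells with 3 genes, 769 ± 78.9 with 4, 1162 ± 146 with 5 and 665 ± 152 with 6. It was thus highest in cells with 5 genes. Rec8, a meiotic cohesin subunit, averaged 46.9 ± 11.7 CPM with 4 genes and 16.4 ± 5.17 with 6. Of 16 spermatogonia markers, 13 were lower with 6 genes than with 3 in 4 of 4 libraries and 0 were higher in all, again without a share over all genes. Dmrtb1, which in mice controls the switch from mitosis to meiosis, averaged 87.5 ± 13.9 CPM with 3 genes and 4.57 ± 0.974 with 6.

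A second ordering left out the rule genes and ranked the selected cells in each library by pachytene programme UMIs against those of S phase genes, Stra8 and Gm4969, and cut the ranks into 3 equal ranges. These ranges are not cell types, and 259 cells lay within 0.1 of a cut. Genes expressed together with the pachytene programme are likely to rise along this score. Meiob and Sycp2, which lie outside the score, rose along it. Meiob averaged 6.99, 30.7 and 152 CPM from the first to the last range, and Sycp2 130, 308 and 821 CPM. The mean number of early prophase genes detected also rose, from 3.56 to 4.04 and 4.78. A pachytene gene of the rule was detected in 39.3, 46.0 and 66.9% of the cells. This ordering is thus not independent of the first grouping and is a description only. The median depth decreased along this order, from 9427 to 11311 UMIs over the libraries in the first range to 5823 to 7868 in the last.

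Sex chromosomes are silenced in male meiosis at pachytene, and the X chromosome share of UMIs is described here. The share was 2.44% and 2.48% in the controls and 2.60% and 2.38% in the mutants. The genotypes overlapped, with means of 2.46% in controls and 2.49% in mutants (exact permutation test over libraries, two-sided, p = 1.0, smallest possible p = 0.333). The share averaged 2.34 ± 0.0852% in cells with 3 genes, 2.68 ± 0.0858% with 5 and 2.63 ± 0.0936% with 6. Pachytene cells had 2.22 ± 0.0874% and the somatic class 4.02 ± 0.106%. Outside the rule, the share was 3.47 ± 0.116% in cells with 0 genes and 2.29 ± 0.0787% with 2. Preleptotene cells had 2.48 ± 0.188%. Low shares were thus not limited to pachytene cells, and the share was not read as a measure of silencing. The cells with 5 or 6 genes thus stood above the cells with 3 and above the pachytene cells, as a description.

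Compared with their neighbours in development, the selected cells were set beside preleptotene cells (149 cells with Stra8 and Gm4969 UMIs and few of the early prophase genes) and pachytene cells (990 cells with at least 3 of the pachytene genes). The values of the selected cells are averages over a mixed set, in which cells with 3 early prophase genes had less Sycp3 (538 CPM) than the preleptotene mean (596 CPM). The preleptotene class was summed from 26 to 52 cells a library. Both neighbours were picked by gene levels, so these comparisons carry no test. Of the 58 meiotic genes, 37 were higher than in preleptotene cells in 4 of 4 libraries and 2 were lower in all. Against pachytene cells 16 were higher and 25 lower in all 4 libraries. Against the somatic class all 58 were higher in 4 of 4 libraries, with a median log2 ratio of 3.83. No share over all genes was set beside these counts or those of the lists below, so they describe the listed genes only.

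The 9 axis and cohesin genes did not move as 1 group. Of these, 7 were higher than in preleptotene cells in 4 of 4 libraries, whereas 3 were higher and 5 lower than in pachytene cells. Sycp3 stood in the selected cells at 1157 and 1302 CPM in the controls and 1425 and 1327 in the mutants. It averaged 596 ± 24.5 CPM in preleptotene cells and 3379 ± 615 in pachytene cells, and no library of one class overlapped those of the next. This holds for the average of the mixed set only. Sycp3 stood at 497 to 583 CPM over the libraries in selected cells with 3 early prophase genes. In those with 6 it stood at 2781 to 3087 CPM, within the SD of the pachytene mean. Hormad1, a HORMA-domain axis protein, averaged 221 ± 55.6, 389 ± 79.0 and 994 ± 195 CPM in preleptotene, selected and pachytene cells. Smc1b averaged 883 ± 73.8, 1559 ± 193 and 1520 ± 482 CPM, with selected and pachytene libraries that overlapped. Rec8 was lower in each later class, at 73.7 ± 28.9, 32.6 ± 9.91 and 7.18 ± 7.56 CPM. Rad21l, the cohesin subunit of early prophase, had its highest mean in the selected cells, at 37.3, 44.9, 74.4 and 34.8 CPM against means of 18.8 ± 8.39 in preleptotene and 26.9 ± 11.3 in pachytene cells, whose libraries reached 37.9 CPM and overlapped.

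Among the genes of the synaptonemal complex centre, 6 of 6 were higher than in preleptotene cells in 4 of 4 libraries. Sycp1, the transverse filament, averaged 928 ± 139 CPM in preleptotene cells, 1187 ± 137 in the selected cells and 2639 ± 333 in pachytene cells. Of 9 genes of break formation not in the rule, 6 were higher than in pachytene cells in all libraries and 2 lower. Prdm9, the methyltransferase that marks break sites, stood at 97.7, 95.7, 142 and 101 CPM and averaged 60.3 ± 10.1 in preleptotene and 63.3 ± 21.5 in pachytene cells. Spo11, the nuclease itself, was lower over all selected cells than in pachytene cells, at 17.8, 13.8, 19.4 and 15.8 CPM against a mean of 64.6 ± 22.8. In selected cells with 6 early prophase genes it stood at 45.7 to 65.1 CPM over the libraries, within the SD of the pachytene mean.

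In strand exchange, Meiob averaged 54.0 ± 7.46 CPM against 279 ± 130 in pachytene cells. Of 11 crossover genes, 6 were lower and 1 was higher than in pachytene cells in 4 of 4 libraries. Msh4 averaged 11.8 ± 1.70 CPM against 38.1 ± 2.58, and Hfm1 112 ± 33.6 against 237 ± 42.5. Of 5 telomere attachment genes not in the rule, 4 were higher than in preleptotene cells in all libraries. The pachytene programme, a list of genes of the next stage, summed to 1049 ± 184 CPM in preleptotene cells, 1390 ± 229 in the selected cells and 3326 ± 155 in pachytene cells. Of its 15 members not in the rule, 7 were higher than in preleptotene cells in 4 of 4 libraries, 3 were lower, and 13 were lower than in pachytene cells. Hspa2, a chaperone of pachytene cells, averaged 72.9 ± 16.9 CPM in the selected cells, 64.7 ± 9.55 in the somatic class and 544 ± 149 in pachytene cells. Of 10 spermatid markers, 4 had no UMI in the selected cells.

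**Figure D2:**
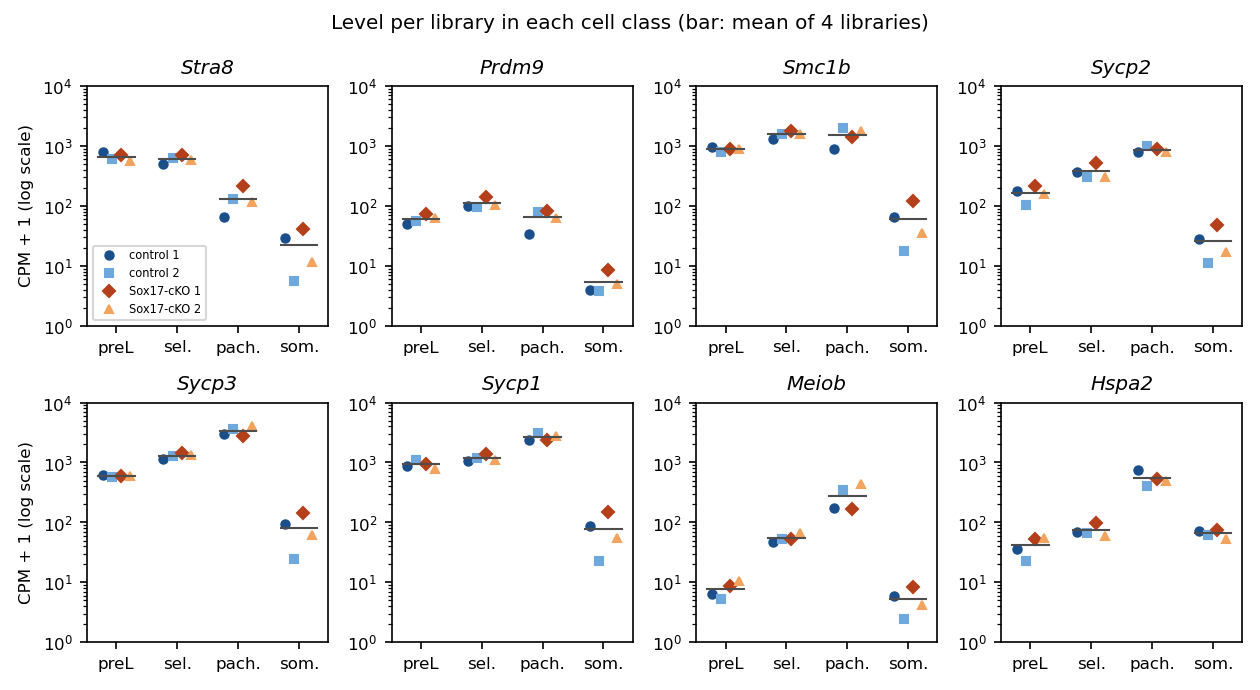
Level of 8 genes in CPM with 1 added (log axis) in preleptotene (preL), selected (sel.), pachytene (pach.) and somatic-class (som.) cells. Points are the 4 libraries and bars their mean. Sycp3 averaged 596, 1303 and 3379 CPM from preleptotene to pachytene cells, and Prdm9 was highest in the selected cells. Values of the selected cells are averages over a mixed set.

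The 10 genes highest in the selected cells relative to the 8507 other germ cells, with the rule genes left out, were Rad21l, Pparg, Gm4969, Prdm9, Eaf2, Stra8, M1ap, Gm4349, Rbpms2 and Pbx3. Their median log2 ratios over the libraries ran from 1.63 (Pbx3) to 1.92 (Rad21l). Stra8 and Gm4969 were not particular to the selected cells. In preleptotene cells, which were picked by UMIs of both, Stra8 averaged 664 ± 103 CPM, against 500.5 to 703 CPM over the libraries of the selected cells. Over the libraries, Stra8 stood at 320 to 352 CPM in selected cells with 3 early prophase genes and at 976 to 1332 CPM in those with 5. Gm4969 averaged 135 ± 14.9 CPM in preleptotene cells, against 22.1 to 25.0 CPM in selected cells with 3 early prophase genes and 92.1 to 126 CPM in those with 6. Gm4969, which RefSeq lists as Bhmg1 with the synonym Meiosin, encodes the partner of STRA8, and M1ap is needed for meiosis I. The 10 lowest were Sct, Adamts5, Igf1, Col4a4, Cxcl2, Fhl2, Mfap4, Ctgf, Col4a3 and Pdlim3, with ratios from -3.78 to -3.17. Several of these encode matrix or secreted proteins of somatic cells. Some of the 8507 other germ cells held as few as 2 germ cell UMIs, and in them interstitial markers summed to 2157 to 8109 CPM over the libraries.

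Promoter windows of these leading genes are shown because these genes were high together and include Stra8 and the gene of its partner MEIOSIN, with whose binding the motif CNCCTCAG is associated. The windows run from 250 bases before to 50 after the start given by RefSeq (GRCm38.p6), and 8 of the 10 genes had one or more. Of 6 motifs searched on both strands, CNCCTCAG was found in 5 of these 8 genes and 6 of their 13 windows, against 7.99% of all 32544 windows and 9.18% of 26742 genes. CACGTG was found in 1 gene (7.17% of all windows), and TGACGTCA (1.80%), TTTCCCGC (1.08%), TTTGGCGC (0.519%) and TTTCGCGC (0.326%) in 0. Pparg, Prdm9 and Eaf2 have several windows each, so a match per gene was likelier for them. The windows of Gm4969 (chr7:19118295-19118594, minus strand), Prdm9 (chr17:15564305-15564604, minus), M1ap (chr6:82946672-82946971, plus) and Stra8 (chr6:34920698-34920997, plus) are written 5′ to 3′, with the matches in capitals.
Gm4969: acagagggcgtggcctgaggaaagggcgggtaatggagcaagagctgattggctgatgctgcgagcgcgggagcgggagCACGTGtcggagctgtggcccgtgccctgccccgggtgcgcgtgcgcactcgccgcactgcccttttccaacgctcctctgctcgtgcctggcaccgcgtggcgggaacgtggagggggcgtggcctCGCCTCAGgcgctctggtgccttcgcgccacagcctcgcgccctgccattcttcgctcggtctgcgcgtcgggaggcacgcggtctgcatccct
Prdm9: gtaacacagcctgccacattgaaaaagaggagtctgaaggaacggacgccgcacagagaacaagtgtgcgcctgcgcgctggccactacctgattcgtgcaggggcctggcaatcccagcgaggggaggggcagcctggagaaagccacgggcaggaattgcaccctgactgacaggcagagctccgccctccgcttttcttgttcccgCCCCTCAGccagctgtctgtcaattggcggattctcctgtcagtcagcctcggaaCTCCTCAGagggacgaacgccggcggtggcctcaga
M1ap: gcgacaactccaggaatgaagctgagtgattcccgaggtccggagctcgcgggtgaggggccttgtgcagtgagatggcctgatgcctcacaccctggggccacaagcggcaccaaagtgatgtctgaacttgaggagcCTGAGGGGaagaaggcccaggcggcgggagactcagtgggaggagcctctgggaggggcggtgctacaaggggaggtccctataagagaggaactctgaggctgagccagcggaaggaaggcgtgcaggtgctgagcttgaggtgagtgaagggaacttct
Stra8: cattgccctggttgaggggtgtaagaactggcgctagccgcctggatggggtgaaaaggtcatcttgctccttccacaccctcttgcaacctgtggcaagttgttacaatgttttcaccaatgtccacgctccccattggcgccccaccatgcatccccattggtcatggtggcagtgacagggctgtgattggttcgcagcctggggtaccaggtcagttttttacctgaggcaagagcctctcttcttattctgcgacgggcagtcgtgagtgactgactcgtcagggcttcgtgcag
Gm4969 holds CACGTG and CGCCTCAG, Prdm9 holds CCCCTCAG and CTCCTCAG, M1ap holds the motif on the other strand as CTGAGGGG, and the Stra8 window holds none of the motifs. A match is a run of letters and does not show binding, and 7.99% of windows hold CNCCTCAG in any case.

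The first question across genotypes was whether the mutant testis held more or fewer of these cells. They made up 9.16% (95% exact binomial interval 8.45 to 9.91) and 8.08% (7.35 to 8.85) of retained cells in the controls. In the mutants they made up 9.59% (8.83 to 10.4) and 6.97% (6.32 to 7.67). The control means and mutant means were 8.62% and 8.28%, and the libraries overlapped (exact permutation test, two-sided, p = 1.0). Of the germ cells, the selected cells made up 15.4%, 27.6%, 15.9% and 20.99% in the same order, with means of 21.5% and 18.5% (exact permutation test, p = 1.0). Here the libraries of the second Cell Ranger pair were both above those of the first. The other germ cells numbered 3082 and 2858 in the first pair and 1095 and 1472 in the second, and their Sertoli markers summed to 5805 and 6482 CPM in the first pair and 2476 and 4144 in the second. The part of this RNA in the shares was not tested. A rule gene also differed between the pairs. Rsph1, 1 of the 6 pachytene genes that limit the selection, had a log2 fold change of -3.38 (second over first pair) in the selected cells, given as a description. In the somatic class these 6 genes summed to 121 and 187 CPM in the first pair and 56.9 and 52.0 in the second. What this did to the shares was not tested. The smallest p of this permutation test with 2 against 2 libraries is 0.333, so it could not pass 0.05. Intervals cover counting error only.

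The make-up of the selected cells also varied. Cells with 5 or 6 of the early prophase genes made up 29.7% (26.0 to 33.7) and 37.3% (32.7 to 42.2) of them in the controls and 37.6% (33.5 to 41.9) and 37.9% (33.0 to 42.9) in the mutants. Control 1 was the lowest library, and the intervals of the other 3 overlapped almost wholly.

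**Figure D3:**
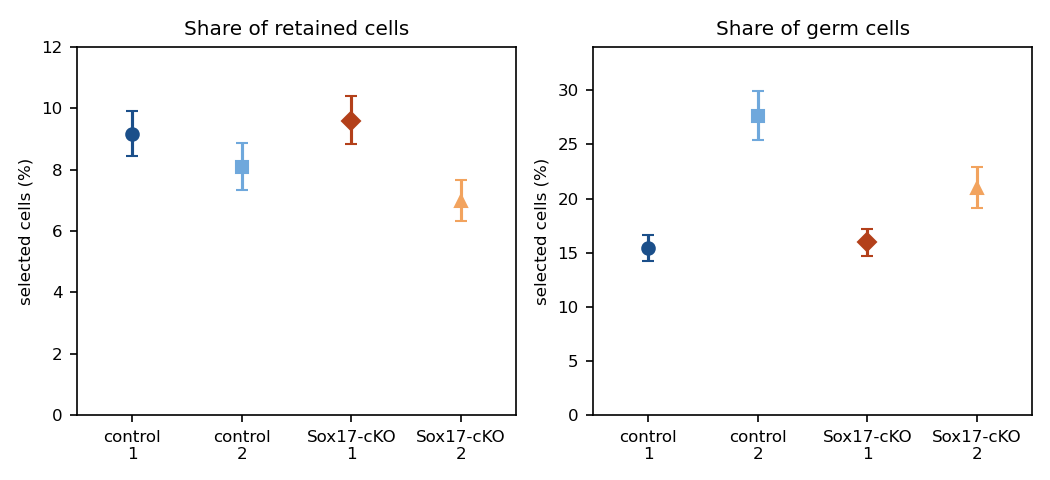
Selected cells as a percentage of retained cells (left) and of germ cells (right) in each library, with 95% exact binomial intervals as bars. Both axes start at 0. Shares of germ cells were 15.4% and 15.9% in the first Cell Ranger pair and 27.6% and 20.99% in the second.

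Expression of the selected cells was then compared between genotypes, with UMIs summed per library as the replicate. By edgeR's quasi-likelihood test 0 of 11570 genes tested passed an adjusted p of 0.05 (0% of genes, 89 at an unadjusted p under 0.05), and DESeq2 also called 0 (57 unadjusted). Neither fit held a term for the Cell Ranger pair. Differences between the pairs thus counted as spread within a genotype and could hide changes. With the Cell Ranger pair as a block 21 genes passed, 18 higher and 3 lower in the mutants, and 19 of the 21 (90.5%) were higher in the somatic class than in the selected cells, against 39.1% of all genes tested. In that edgeR fit 383 genes had an unadjusted p under 0.05. In 2217 genes (19.2%) the libraries of the genotypes did not overlap. Libraries in random order would not overlap in a share of 0.333 of genes, so lack of overlap is a description only. With 2 libraries a genotype, small changes could not be seen.

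The meiotic genes gave no call between genotypes, also with the Cell Ranger pair as a block. The values below are from the fit without the pair. Of 55 tested, with the rule genes left out, 0 passed, 0 had an unadjusted p under 0.05, and 10 (18.2%, against 19.2% of all genes) did not overlap between genotypes, all of them higher in the mutants. Their log2 fold changes (Sox17-cKO over control) ran from -0.18 to 0.37 with a median of 0.13, against -0.01 for all genes. The values were positive for 42 of 55 genes (76.4%, against 48.8% of all genes), but without Sox17-cKO 1 the median was -0.0050 and 25 were positive, and without control 1 it was 0.03. The median was 0.28 without control 2, 0.20 without Sox17-cKO 2 and 0.13 with the Cell Ranger pair as a block. For the 10 genes that did not overlap, no share by direction over all genes was computed. In cells with 5 or 6 genes, a choice made once the data had been seen, the median was 0.03.

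Single markers showed the same spread. For Smc1b, whose library values are given above, the log2 fold change was 0.17 ± 0.26 (SE, edgeR adjusted p = 0.9998), with control 1 as the low library. Dmc1, the meiotic recombinase and a rule gene without a test, stood at 216 and 263 CPM in the controls and 259 and 258 in the mutants. For Sycp1 the values were 1075, 1183, 1380 and 1110 CPM, and the log2 fold change was 0.10 ± 0.26 (edgeR adjusted p = 0.9998). Stra8 stood at 500.5, 637, 703 and 584 CPM, with a log2 fold change of 0.14 ± 0.26 (edgeR adjusted p = 0.9998). The genotypes overlapped in each of these genes. Within the first pair of libraries the log2 difference was 0.44 for Smc1b, 0.36 for Sycp1 and 0.49 for Stra8, and within the second -0.016, -0.092 and -0.13. S phase genes had a median of -0.13 and 0 calls among 16, and spermatogonia markers a median of -0.20 and 0 calls among 16.

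The genes with the smallest unadjusted p whose libraries did not overlap were, in the mutants, higher for Gucy1a1, Tinagl1, Tm4sf1, Col1a2 and Myl9. None passed the adjusted threshold, and all 5 passed with the pair as a block or without a filter on low counts. Few UMIs lay behind Gucy1a1 (4, 6, 39 and 27 by library), Tinagl1 (0, 2, 28 and 20) and Tm4sf1 (2, 2, 41 and 13). All 5 were higher in the somatic class, with means of 65.2, 22.6, 41.8, 3172 and 404 CPM in the order named. Their lowest log2 fold changes under the alternatives were 1.48, 1.06, 0.094, -1.41 and 0.10. The part of somatic RNA in these 5 was not tested. Col1a2, a type I collagen chain of fibroblasts, stood at 51.1 and 64.9 CPM in the controls and 127 and 223 CPM in the mutants, with a log2 fold change of 1.57 ± 0.33 (unadjusted p = 0.00137, edgeR adjusted p = 0.9998). Myl9, a smooth muscle myosin light chain, stood at 9.75 and 18.5 against 47.0 and 40.0 CPM, a log2 fold change of 1.59 ± 0.36. Col1a2 is also 1 of 11 interstitial markers, of which 0 passed between genotypes. These summed to 235 and 436 CPM in the controls and 639 and 1237 CPM in the mutants in the selected cells, and 7 of 11 did not overlap (19.2% of all genes did not), with a median log2 fold change of 1.36. The same list differed between the Cell Ranger pairs, with 4 calls. With the pair as a block 4 of the 11 passed, against 21 of 11570 genes. All 11 had UMIs in the selected cells. In cells with at least 4 of the early prophase genes the median over the 9 that could be tested was 0.0052. The part of this RNA in other values was not tested.

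The genes lower in the mutants by the same rule were Polr2l, Grin1, Hist1h2ap, Gm28578 and Gm11808. Few UMIs lay behind Grin1 (12, 11, 2 and 1 by library) and Gm28578 (20, 21, 7 and 2). Polr2l, a shared RNA polymerase subunit, stood at 71.2 and 93.9 CPM in the controls and 45.9 and 45.3 in the mutants, a log2 fold change of -0.89 ± 0.26 (unadjusted p = 0.00827, edgeR adjusted p = 0.9998). Hist1h2ap, a replication-dependent histone of a family of near-identical copies, stood at 716 and 871 against 419 and 117 CPM, a log2 fold change of -1.62 ± 0.50 (unadjusted p = 0.0121, edgeR adjusted p = 0.9998). Polr2l and Hist1h2ap were lower in each mutant library than in each control, and Hist1h2ap passed with the pair as a block. Counting could split reads among the histone copies, so the value of Hist1h2ap is uncertain.

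The pairs of libraries with different Cell Ranger versions were compared with genotype as covariate. In this fit 1300 genes passed (11.2%), of which 649 (5.61%) were higher and 651 (5.63%) lower in the second pair, and DESeq2 called 342. The fit of the same form called 21 genes for genotype. The genes lower with the smallest p were Defb19, Tnni3, Defb36, Cst12 and Aard. Cst12, a Sertoli cell cystatin, stood at 406 and 308 CPM in the first pair and 79.2 and 65.4 in the second, a log2 fold change of -2.25 ± 0.18 (edgeR adjusted p = 3.84e-08). Aard, another Sertoli gene, stood at 569 and 451 against 126 and 74.5 CPM, a log2 fold change of -2.33 ± 0.19 (edgeR adjusted p = 3.84e-08). All 11 Sertoli markers tested were lower in the second pair and passed, and the list of 12 summed to 2515 and 1989 CPM in the first pair and 616 and 590 in the second. The part of this RNA in the other calls was not tested. Of the 651 genes lower in the second pair, 65.3% were higher in the somatic class than in the selected cells, against 39.1% of all genes tested.

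The genes higher in the second pair were led by Hist1h4d, Socs3, Gpaa1, Col6a1 and Hypk. Hist1h4d, a histone H4 copy, stood at 132 and 146 CPM in the first pair and 389 and 481 in the second, a log2 fold change of 1.68 ± 0.18 (edgeR adjusted p = 2.33e-06). Gpaa1, which acts in anchoring proteins by GPI, stood at 37.5 and 50.9 against 137 and 127 CPM, a log2 fold change of 1.64 ± 0.19 (edgeR adjusted p = 4.33e-06). Of the 11 interstitial markers, 11 had positive values in the second pair, with a median of 0.87, and 4 passed (Col1a1, Col3a1, Acta2 and Col1a2). Among the 55 meiotic genes tested that the rule did not use, 6 passed. Rec8, Rec114 and Ccdc155, the last a telomere tether, were higher in the second pair by log2 fold changes of 0.73 ± 0.22, 1.05 ± 0.18 and 0.72 ± 0.22. Syce3, Ankrd31 and Tex15 were lower, with log2 fold changes of -1.21 ± 0.18, -0.55 ± 0.17 and -0.63 ± 0.19. DESeq2 called 3 of the 6 (Syce3, Rec114 and Tex15). The meiotic genes as a whole had a median of 0.03, and 10.9% of them were called, near the 11.2% of all genes tested.

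**Figure D4:**
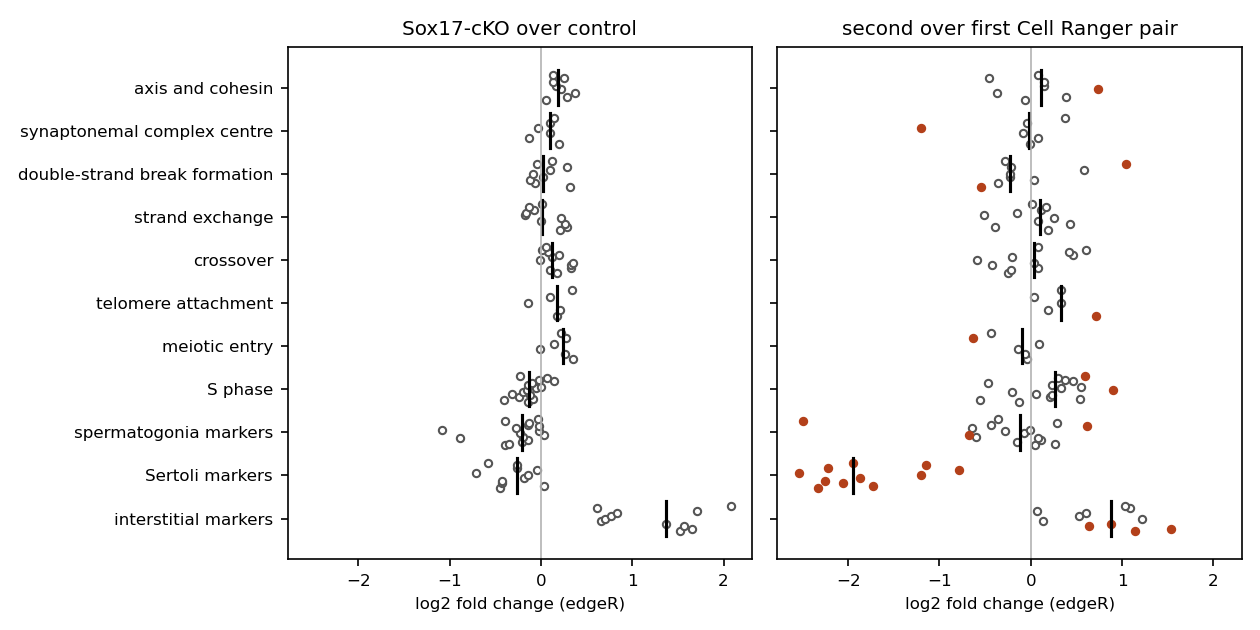
Log2 fold changes from edgeR for the genes of 11 lists in the selected cells, rule genes left out, for Sox17-cKO over control (left) and for the second over the first Cell Ranger pair (right). Filled points passed an adjusted p of 0.05, open points did not, and bars are list medians. The Sertoli markers have a median of -1.95 on the right, and the interstitial markers a median of 1.36 on the left with 0 calls.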

How the data were processed

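UMIs were measured in 4 libraries, 2 control and 2 Sox17-cKO. The authors deposited whole UMI counts per gene and barcode, made with Cell Ranger 6.0.2 or 6.1.2 against mm10 (GRCm38) and not normalized. Merged tables of several libraries were not used. GENCODE vM21 gave chromosomes and coordinates for 99.6% of 31053 genes.

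Barcodes with 1000 to 4500 detected genes were kept. The study's limit on mitochondrial UMIs was not applied, and a limit of 10% was an alternative. No doublet caller was run. UMIs of the selected cells were summed per library and compared with edgeR 4.0.16 in R 4.3.3 (TMM, filterByExpr, quasi-likelihood F test, Benjamini-Hochberg over all genes tested, threshold 0.05, two-sided), and with DESeq2 1.42.0 as an alternative. CPM use all UMIs of a class, and ratios between classes add 1 CPM. Shares and the X chromosome share were compared by an exact permutation test over libraries with SciPy 1.17.1, NumPy 2.4.6 and pandas 2.3.3 under Python 3.11.15. The steps were tested on simulated data. The simulated counts for edgeR held no difference between the Cell Ranger pairs, so they do not cover that part of the design. The somatic class and RT cells were barcodes with no UMI of Ddx4 or Dazl and at least 3 of 6 Sertoli or RT genes, and the somatic class also held interstitial RNA.

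Libraries, not cells, were the replicates. The label numbers of the libraries share the Cell Ranger version. No source says that a number marks shared animals. A fit with this pair as a block was an alternative. The genes named were the role lists, markers and rule genes, the 10 highest and lowest leading genes (mean of at least 20 CPM, same direction in 4 libraries), and, per comparison and direction, the 5 with the smallest p and libraries that do not overlap. One item is not reported here. The cells, lists and rules were chosen with earlier results of these data known. Grouping cells by the number of early prophase genes and the limit of at least 5 were added after the data were seen.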

Additional observations from a re-analysis of the deposited data

How the results depend on the processing

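Of 2 replicates per genotype, each was left out in turn, and with 1 left in a group its spread was assumed to be that of the others. The count of genes called between genotypes was 0 in the reported fit, 22 without a filter on low counts (20 higher, 2 lower) and 21 with the Cell Ranger pair as a replicate block, and 0 under DESeq2 and under the 6 other choices of cells. It ranged from 0 to 35 when a library was left out (35 without control 2, 11 without control 1, 9 without Sox17-cKO 1, 0 without Sox17-cKO 2). Of the called genes, 16 of 22 without a filter and 19 of 21 with the block were higher in the somatic class than in the selected cells, and 0 belonged to the meiotic lists. Of the 11570 genes of the reported fit, 39.1% were higher in the somatic class. The fit without a filter tested 19610 genes, for which this share was not computed. Between Cell Ranger pairs DESeq2 called 342 genes in place of 1300, 341 of them shared, and 1247 were called without a filter.

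Directions of the shares were not stable. The difference (Sox17-cKO minus control) in the share of retained cells was -0.338 points and ranged from -1.65 to 0.970 when a library was left out, and it was 0.256 with at least 5 early prophase genes. That in germ cells was -3.06 points, -0.477 after thinning, and ranged from -9.16 to 3.04. That in the X chromosome share was 0.0346 points, ranged from -0.0756 to 0.145, and was -0.0343 with at least 5 genes. Among the named genes the sign of the log2 fold change between genotypes also reversed, with no call, in the following. Dmc1, Terb1 and Zcwpw1 are rule genes, given as a description. With at least 5 genes it was -0.053 for Dmc1, -0.064 for Terb1, -0.028 for Sycp2, -0.049 for Sycp1, -0.018 for Sycp3, -0.10 for Hormad1, -0.071 for Meiob and -1.41 for Col1a2. Col1a2 was -0.27 with none of the pachytene genes and -0.23 without the tenth of cells with most somatic UMIs, which were removed by markers that include it. With a library left out the range was -0.074 to 0.25 for Dmc1, -0.0033 to 0.37 for Terb1, -0.014 to 0.29 for Zcwpw1, -0.13 to 0.55 for Sycp2, -0.024 to 0.22 for Sycp1, -0.24 to 0.29 for Hormad1 and -0.035 to 0.35 for Stra8. The cause was not tested. Of the named genes, Gucy1a1, Tinagl1, Tm4sf1, Col1a2, Myl9 and Hist1h2ap passed under at least 1 alternative. Between Cell Ranger pairs the 10 genes named for the smallest p in either direction kept direction and call under both alternatives. Of the 6 meiotic genes called, DESeq2 called 3 and the fit without a filter 5. The depth of 3423025 to 4717664 UMIs per library limits genes under about 1 CPM to a few UMIs.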
